A study of Mus musculus with 4 samples.

Results

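Regions of H3K27 acetylation at gene 3' ends were examined in the gastrocnemius, a limb muscle of mainly fast fibres, of adult female B6CASTF1/J mice aged 2 months. The members were the autosomal regions of the authors' replicated list whose summit, the position of highest enrichment, lay within 1 kb of the 3' end of a protein-coding gene in GENCODE vM21 basic (mouse build mm10), outside every coding exon and more than 5 kb from every transcript start. They numbered 919 of 82994 autosomal regions and 84452 regions in all. They were set beside the 50980 comparison regions that met the same limits on coding sequence and starts but lay farther than 1 kb from a coding 3' end, of which 33160 lay inside coding genes and 17820 outside.

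The study holds 4 ChIP-seq libraries in 1 group, with no treatment or genetic change named in the labels, as 2 biological replicates of 2 technical replicates each. Each biological replicate was a pool of 2 gastrocnemius biosamples, and the number of animals behind a biosample is not given in the labels. B6CASTF1/J mice are a cross of the C57BL/6J and CAST/EiJ strains, and the regions do not separate the alleles. The authors deposited 4 peak lists, 1 for each biological replicate, 1 from pooled reads and the replicated list, with 69747 autosomal regions for replicate 1 and 85382 for replicate 2. Read depth is unknown from these files, and the signal value, the authors' own enrichment value for each region, was compared within a list only.

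H3K27ac marks nucleosomes at active promoters and enhancers. At the 3' end of a gene the transcript is cleaved and polyadenylated, while the polymerase runs on beyond the end before it terminates. Sequence around a 3' end can also hold enhancers of the same or a neighbouring gene, promoters of antisense or downstream transcripts, and sites of CTCF, the zinc finger protein that anchors chromatin loops. In whole muscle, fibres, vessels, connective tissue and other cells contribute to 1 signal, and fewer cells of a type cannot be told apart from less acetylation per cell. Promoter regions were present at 8 of 8 skeletal muscle markers, 5 of 5 endothelial, 5 of 5 fibroblast, 5 of 5 smooth muscle and pericyte and 3 of 5 leukocyte markers, and at 0 of 5 markers each of heart, liver and brain; *Ptprc* and *Adgre1* were the leukocyte markers without one.

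The sequences under 8 members show what the strongest regions and those at muscle genes lie on. Each run is the mm10 reference from RefSeq, centred on the summit, on the strand of the gene, and outside every annotated exon, with capitals for matches to AP-1 (TGANTCA), RUNX (TGTGGT), the KLF and SP motif (GGGCGG) or the E-box CAGCTG. The first 4 are among the 12 strongest members, and the other 4 lie past the ends of a membrane repair gene, a muscle transcription factor gene, a smooth muscle gene and a fibroblast gene.
Bad (chr19:6951955-6952105, plus strand): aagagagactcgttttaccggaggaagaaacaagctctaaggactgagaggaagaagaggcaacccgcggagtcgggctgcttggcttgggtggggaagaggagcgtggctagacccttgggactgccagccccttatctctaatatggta
Hspb7 (chr4:141426009-141426159, plus strand): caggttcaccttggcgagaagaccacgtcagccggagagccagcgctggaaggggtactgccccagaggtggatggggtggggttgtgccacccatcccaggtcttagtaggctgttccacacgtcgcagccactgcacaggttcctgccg
Lag3 (chr6:124904024-124904174, minus strand): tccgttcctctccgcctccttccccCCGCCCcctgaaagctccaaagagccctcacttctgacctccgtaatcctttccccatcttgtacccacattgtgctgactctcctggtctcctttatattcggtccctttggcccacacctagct
Ebpl (chr14:61331251-61331401, minus strand): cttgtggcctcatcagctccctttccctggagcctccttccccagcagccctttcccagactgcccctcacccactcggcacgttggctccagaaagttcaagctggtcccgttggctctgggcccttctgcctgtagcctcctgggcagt
Dysf (chr6:84211375-84211525, plus strand): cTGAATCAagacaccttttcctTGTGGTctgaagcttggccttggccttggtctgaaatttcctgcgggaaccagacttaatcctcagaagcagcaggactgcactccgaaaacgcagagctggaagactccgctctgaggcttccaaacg
Mef2d (chr3:88172333-88172483, plus strand): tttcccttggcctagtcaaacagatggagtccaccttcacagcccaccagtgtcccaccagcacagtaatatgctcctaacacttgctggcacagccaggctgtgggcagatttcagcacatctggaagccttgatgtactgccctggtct
Lmod1 (chr1:135368487-135368637, plus strand): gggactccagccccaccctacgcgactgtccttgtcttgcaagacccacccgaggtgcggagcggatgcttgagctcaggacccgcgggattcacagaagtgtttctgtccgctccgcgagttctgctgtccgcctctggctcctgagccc
Pi16 (chr17:29331171-29331321, plus strand): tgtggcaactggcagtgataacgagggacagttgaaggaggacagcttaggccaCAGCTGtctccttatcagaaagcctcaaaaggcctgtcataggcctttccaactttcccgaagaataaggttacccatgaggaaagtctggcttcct
The *Lag3* window held GGGCGG on its opposite strand, the *Dysf* window held an AP-1 and a RUNX match and the *Pi16* window an E-box. No match to any of the 17 motifs searched fell in the 151 bases of *Bad*, *Hspb7*, *Ebpl*, *Mef2d* or *Lmod1*. CpG dinucleotides numbered 11 in the *Lmod1* window, 7 in *Hspb7*, 6 in *Bad*, 5 each in *Lag3* and *Dysf*, 3 in *Ebpl*, 2 in *Pi16* and 0 in *Mef2d*.

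The members were spread over both sides of the gene end. Summits lay past the end for 437 members (47.6%) and up to it for 482. A 3' UTR held 412 summits (44.8%), sequence between genes 345 (37.5%), introns of coding genes 143, noncoding genes 16 and other exons 3. Past the end, 73 members lay inside another coding gene. Ends of oppositely oriented coding genes met within 1 kb at 68 members (7.40%), so that the gene to which such a region belongs cannot be named from position. All 19 autosomes held members, between 20 on chromosome 18 (0.694% of its 2883 regions) and 99 on chromosome 11 (1.56% of 6329). By share of regions, chromosome 4 was highest with 1.59%.

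Members were counted against the bases in which the rule allowed a summit. Within 1 kb of an end there were 43.7 summits per permitted Mb, against 38.2 summits per Mb at 2 to 10 kb, a ratio of 1.14. Up to the end the density was 47.7 per Mb, against 40.0 per Mb at 2 to 10 kb before it. Past the end it was 40.0 per Mb, against 36.4 per Mb at 2 to 10 kb downstream. The ratio was 1.25 where the nearest transcript start lay 5 to 10 kb away, 1.11 at 10 to 20 kb, 1.01 at 20 to 50 kb and 1.11 beyond 50 kb. It was 1.12 in the list of replicate 1 and 1.11 in that of replicate 2. In bins of 500 bp, the bin from 1000 to 500 bp before the end was the highest with 50.9 summits per Mb. The 36 bins beyond 1 kb, which reach 10 kb to either side, ranged over 29.9 to 47.4 per Mb. That range of single bins includes the other 3 bins within 1 kb. The nearest bins, at 1 to 2 kb, had 40.7 and 39.1 per Mb before the end, and 40.2 and 46.2 per Mb past it.

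**Figure D1:**
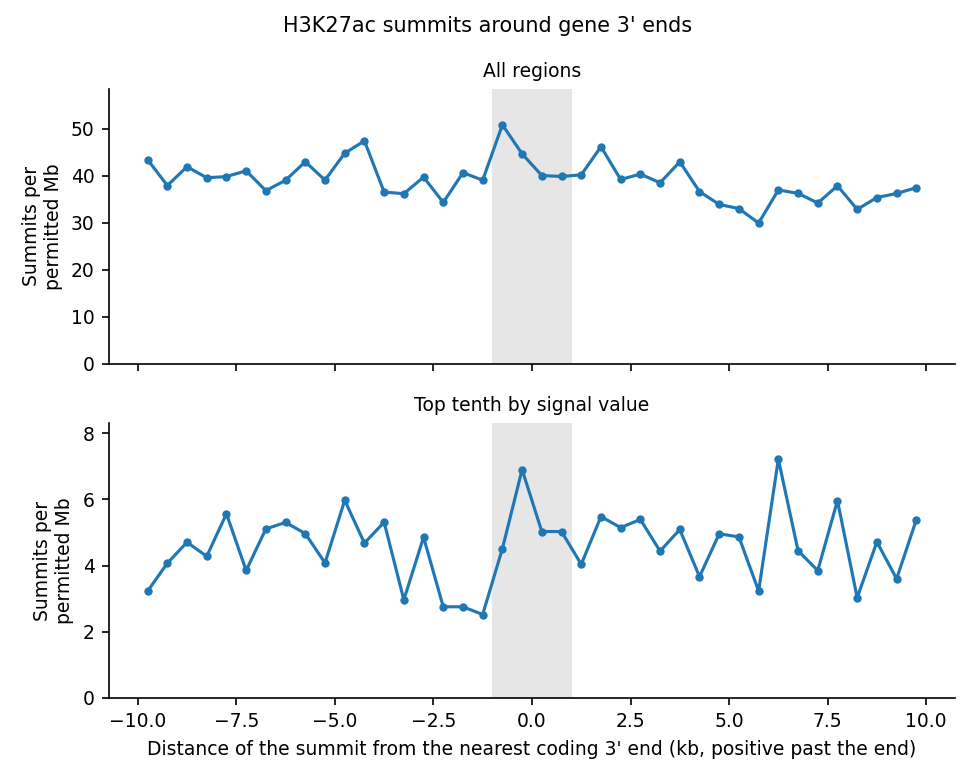
Summits per permitted Mb in bins of 500 bp (points) by distance from the nearest coding 3' end in kb, negative before the end and positive past it. The top panel holds all regions with a permitted summit. The bottom panel holds those with a signal value of at least 11.58, the highest 10% among all regions with a permitted summit. The grey band marks the 1 kb that defines the members. The density inside the band was 39.9 to 50.9 per Mb for all regions, and the bins outside it ranged over 29.9 to 47.4 per Mb.

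As regions, the members resembled the comparison regions in most measures. Their median width was 745 bp, with the middle of the distribution spanning 430 to 1608 bp, against 753 bp (431 to 1470 bp) for the comparison regions. The median signal value was 4.39 (3.38 to 6.82), against 4.25 (3.34 to 6.58). A signal value of at least 20 was reached by 37 members (4.03%), against a background of 3.33% of comparison regions. Of the members past the end 24 (5.49%) reached it, and of those up to the end 13 (2.70%). Most members past the end, 364 of 437, lay outside coding genes. Comparison regions differed by place in the same direction, with 3.996% outside coding genes and 2.973% inside reaching a value of 20. Whether members past the end differ from comparison regions outside coding genes was not tested. The 86 members in the last 100 bp inside the limit of 1 kb had a median signal value of 4.55 and a median width of 919 bp, and the 79 regions in the first 100 bp beyond it had 4.20 and 798 bp.

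Both single-replicate lists held a matching region for 544 members (59.2%, with a 95% Wilson interval of 56.0 to 62.3% that covers counting error only), against a background of 58% of comparison regions. Replicate 1 alone matched 47 members, replicate 2 alone 198 and neither 130. Sharing followed the signal value: in the lowest quartile of members 23 of 230 (10%) were in both replicate lists, in the next 97 of 231 (42.0%), then 196 of 230 (85.2%), and in the highest 228 of 228. Comparison regions in the same ranges of signal value were shared at 11.5%, 42.9%, 86.6% and 99.8%. Up to the median signal value, 120 of 461 members were in both single-replicate lists, and the values of the others have no match in 1 replicate or in either.

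The strongest member lay 131 bp past the end of *Bad*, which encodes a pro-apoptotic protein of the BCL2 family, at chr19:6950419-6954656. Its signal value in the replicated list was 58.5, with 47.1 for replicate 1 and 57.9 for replicate 2, above 99.6% of autosomal regions, and the promoter region of *Bad* had 34.5. The end of *Plcb3*, a phospholipase C gene, lies within 1 kb of the same summit. The next by signal value, at 47.7 (37.4 in replicate 1 and 53.6 in replicate 2), lay past the end of *Slc23a3*, a gene of the ascorbate transporter family, at chr1:75123695-75126095. RefSeq places a transcript start of *Nhej1*, a DNA repair gene, 88 bp from that summit, so this region is a promoter region in that annotation.

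*Hspb7*, a small heat shock protein gene of heart and skeletal muscle, had a region 773 bp past its end at chr4:141424805-141427488. Its value in the replicated list was 45.3, with 31.3 for replicate 1 and 49.9 for replicate 2, and the promoter region of the gene had 26.4. *Lag3*, which encodes an inhibitory receptor of T cells, had 43.3, 33.9 and 43.1 in the same lists at chr6:124903554-124905129, 262 bp past its end, and no promoter region. Of the 5 leukocyte markers 3 had a promoter region, and which gene the region at *Lag3* belongs to was not tested.

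*Ldhd*, the gene of mitochondrial D-lactate dehydrogenase, had a region of 9552 bp with its summit in the 3' UTR, 623 bp before the end (chr8:111617033-111626584). Its value in the replicated list was 41.0, with 32.7 for replicate 1 and 43.3 for replicate 2, beside 38.7 at the promoter. The other members among the 12 strongest were at *Shf*, an adaptor protein gene whose end meets that of the oxidase gene *Duox1* (39.0), at *Adamtsl4*, an extracellular matrix gene (38.8), at *Dand5*, which encodes a secreted antagonist of Nodal and BMP signals (38.6), and at *Ebpl* (37.4), *Thap3* (37.3), *Fam189a2* (36.5) and *Ticam1*, which encodes the TRIF adaptor of Toll-like receptors (36.2). Over the 12, values spanned 23.7 to 47.1 in replicate 1 and 37.9 to 57.9 in replicate 2. Of the 12, 7 lay past the gene end.

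**Figure D2:**
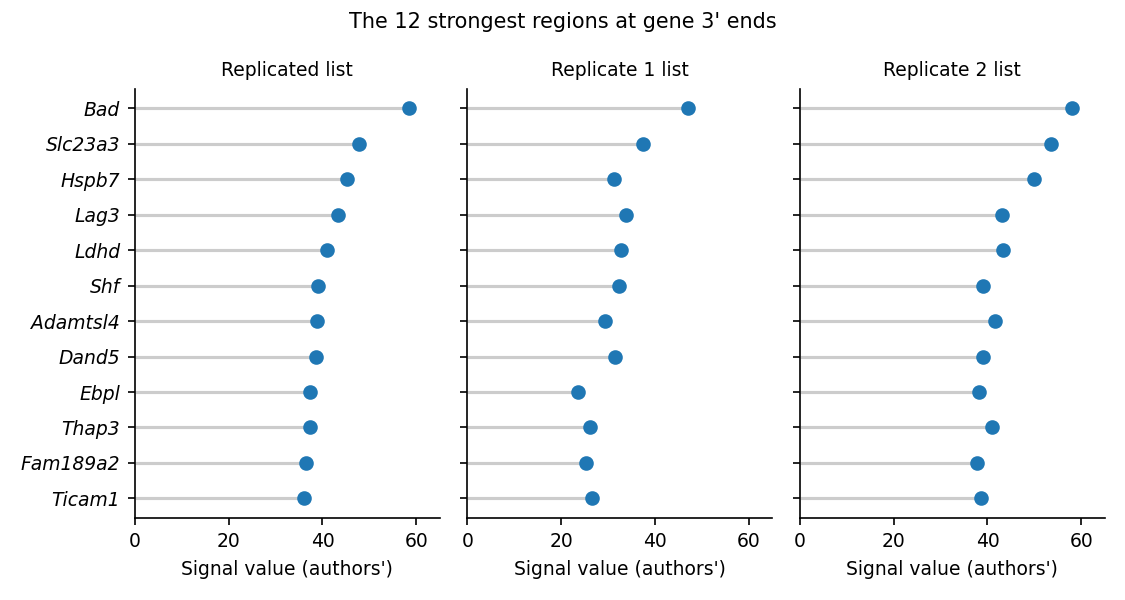
Signal value (authors' unit, horizontal axis from 0) of the 12 strongest members found in both replicates, by nearest gene, in the replicated list (left), the list of replicate 1 (middle) and the list of replicate 2 (right). *Bad* was highest in all 3 lists, with 58.5, 47.1 and 57.9, and values are comparable within a panel only.

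The 6 widest members were found in both replicates. The widest, 12868 bp, had its summit 246 bp past the end of *Atp6v0a1*, which encodes a subunit of the vacuolar proton pump, at chr11:101054778-101067645; its signal value was 33.2, beside 36.4 at the promoter. *Ppp1r12b*, the gene of a myosin phosphatase subunit, had a region of 10807 bp at chr1:134751665-134762471 with a value of 19.3, beside 50.2 at the promoter. *Ldhd* followed, then *Psmb3*, a proteasome subunit gene, with 8470 bp, *Adamtsl4* with 8244 bp and *Fmnl3*, a formin gene, with 7686 bp. The full GENCODE set has a start within 1 kb of the summit at *Psmb3*.

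The start of the same gene was compared with its end. Of 12817 coding genes with a permitted 3' end, 866 had a member, a background of 6.76%, and among the 8646 of them with a promoter region, here a region within 1 kb of any of their starts, 751 did (8.69%). Among the 866 genes, 751 (86.7%) had a promoter region, against 67.5% of all genes with a permitted end and 66.1% of those without a member. The share of genes with a 3'-end region was 2.76% without a promoter region, and 6.01%, 8.33%, 9.98% and 10.4% from the lowest to the highest quartile of promoter signal value. The same order held in each single-replicate list: 1.97%, 5.18%, 7.15%, 7.58% and 8.35% in replicate 1, and 2.78%, 6.77%, 8.33%, 9.40% and 11.3% in replicate 2. Gene length showed no such order, with 6.10% below 10 kb, 7.28% at 10 to 30 kb, 7.06% at 30 to 100 kb and 5.80% above. Of 677 genes with a 3'-end region in the list of replicate 1 and 890 in that of replicate 2, 521 were in both, 77.0% and 58.5% of the lists.

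**Figure D3:**
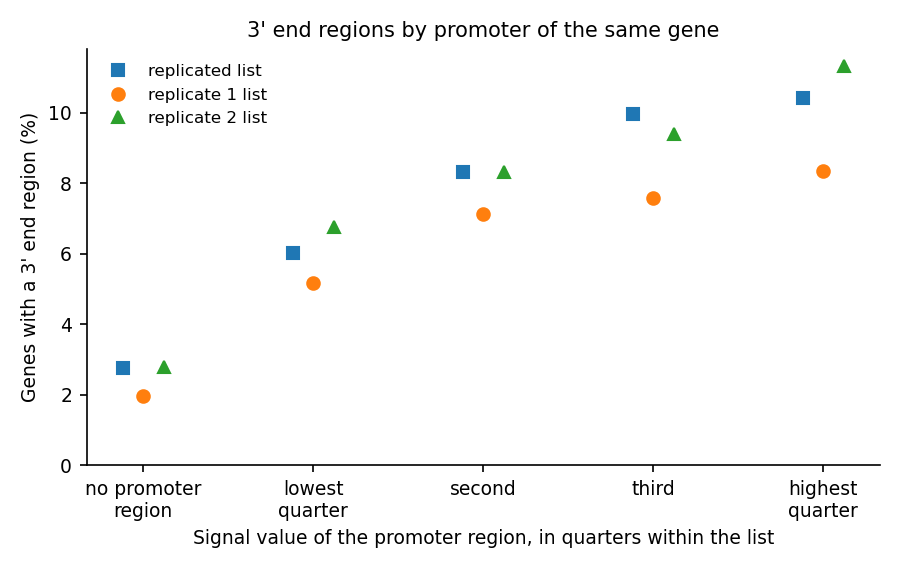
Percent of coding genes with a permitted 3' end that had a 3'-end region (vertical axis), for genes without a promoter region and for quartiles of promoter signal value, in the replicated list (squares), replicate 1 (circles) and replicate 2 (triangles). The share was lowest without a promoter region, at 1.97 to 2.78%, and highest in the highest quartile, at 8.35 to 11.3%.

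The promoter usually carried the higher value. Among 800 members whose gene had a promoter region, the median signal value was 4.41 at the 3' end and 30.6 at the promoter, and the 3' end was higher for 46 members (5.75%), of which 43 were shared with both replicates. The member at *Snai1* spanned a start of that gene and was also counted as its promoter region, with 16.1 as both values. Of the 12 strongest members, which were picked for high values, 9 had a gene with a promoter region, and all 9 exceeded it. By excess, *Bad* led, followed by *Sh2d6* with 30.9 at the 3' end and 7.75 at the promoter, *Shf* with 39.0 and 16.2, *1700001O22Rik* with 24.8 and 5.67, and *Hspb7* with 45.3 and 26.4. Without the members that have another annotated start within 1 kb, 43 of 768 (5.6%) were higher at the 3' end.

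**Figure D4:**
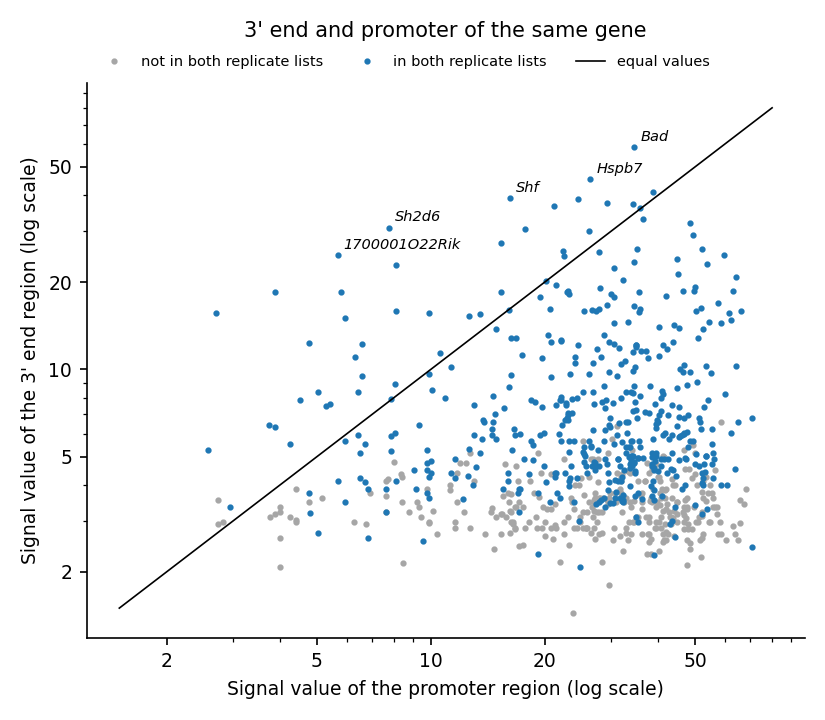
Signal value of each member (vertical, log scale) against that of the promoter region of its gene (horizontal, log scale) in the replicated list, for the 800 members whose gene had one; blue members were in both replicate lists, grey ones were not, and the line marks equal values. Most points, 754 of 800, lie on or below the line, and the 5 named genes exceed their promoters by the most.

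Genes of muscle and of its other cell types were followed through 20 gene lists, read beside the 6.76% of all genes and the 8.69% of genes with a promoter region. Together the lists had 50 members at 41 genes, of which 31 were in both replicates. Their signal values ranged over 2.51 to 19.2 with a median of 4.24, below the 4.39 of all members, and none reached 20. A promoter region was present for 49 of the 50, and 3 exceeded it. Shares were above 6.76% in 16 lists, and 4 lists had no member. Of the 16, the neuromuscular junction and heart lists, at 7.69% each, were below 8.69%. Each list holds at most 23 genes with a permitted end, and 1 gene moves its share by several points. The end of another coding gene also lay within 1 kb of the members at *Actn3*, *Nrap*, *Fabp3*, *Prkar1a*, *Eng* and *Plin4*, and the full GENCODE set has a start within 1 kb of that at *Actn3*.

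Among fibre genes, the list of calcium release at the triad, the junction of the T-tubule with the sarcoplasmic reticulum, had members at 4 of 13 genes (30.8%). *Dysf*, which encodes the membrane repair protein dysferlin, had a region of 3934 bp, 390 bp past its end at chr6:84208536-84212469, with 19.2 (17.3 and 18.7 in replicates 1 and 2) beside 28.0 at its promoter. Its width was 3938 bp in replicate 1 and 3871 bp in replicate 2, and a start in the full GENCODE set lies within 1 kb of its summit. *Cacng1*, the gamma subunit of the muscle calcium channel, had 11.1 (9.71 and 11.4 in replicates 1 and 2) in its 3' UTR, against 28.2 at its promoter. *Jph1*, which encodes junctophilin, had 4.91, and *Stac3*, a gene of excitation-contraction coupling, had 4.25 with no match in replicate 1 and a RefSeq start of *Ndufa4l2* 54 bp away.

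Sarcomere and Z-disc genes had members at 4 of 17 (23.5%). *Pdlim7*, a Z-disc protein gene, had 9.78 (8.29 and 9.62 in replicates 1 and 2) at chr13:55494258-55497170, and *Myoz1*, a Z-disc protein gene of fast fibres, had 6.05 and 2.82 in its 2 regions. The second *Myoz1* region was matched in replicate 1 only. *Myom1*, of the M-band, had 4.25 and *Nrap* 3.61, neither of them in both replicates. Fast-fibre genes had members at 3 of 12 (25%), all weak: *Mylk2*, the skeletal myosin light chain kinase gene, with 4.23, *Actn3*, which encodes alpha-actinin-3, with 4.0, and *Tnnt3*, the fast troponin T gene, with 3.99 and 3.53. Only the stronger *Tnnt3* region was in both replicates, and the promoters of these 3 genes had 36.3 to 49.0. The slow-fibre list had members at 2 of 10 genes (20.0%), both in both replicates. They were at *Casq2*, a calsequestrin gene, with 5.26, and at *Sox6*, with 4.28. *Sox6* is in that list as a repressor of slow-fibre genes and is not itself a slow-fibre gene. *Tpm2*, which encodes beta-tropomyosin, was 1 of 5 genes with 3 members within 1 kb of their end, with values of 3.74, 2.84 and 3.35. The end of *Car9* is also within 1 kb of the first of them. Only that first region was in both replicates, and the others were matched in replicate 2 only. The first and second matched the same replicate 2 region of 1355 bp. *Soga1*, *Tnfaip2*, *Ubox5* and *Zfp609* had 3 each, between 2.30 and 5.67. The *Soga1* region of 2.45 and the *Tnfaip2* region of 2.71 had no match in either replicate. The *Ubox5* region of 5.15 was matched in replicate 2 only.

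Muscle transcription regulators had members at 4 of 23 genes (17.4%), and each of the 4 had a region in both replicates. *Mef2d*, a MEF2 factor gene, had a region of 7396 bp at chr3:88168904-88176299 with 18.7 (16.6 and 17.9 in replicates 1 and 2), against 63.2 at its promoter. *Nfib*, a nuclear factor I gene, had 10.2 (7.86 and 11.4) and 64.3 at its promoter. *Mef2a* had 6.95, and *Nfia* 4.12 and 3.74. The first of these *Nfia* regions was matched in replicate 2 only. In metabolism, no member lay at the 16 glycolysis and glycogen genes with a permitted end, and 2 of 22 oxidative genes (9.09%) had one, the fatty acid binding protein gene *Fabp3* with 3.66 and the pyruvate dehydrogenase kinase gene *Pdk4* with 2.97. Atrophy and growth signalling had 2 of 22 (9.09%), *Smad3* with 3.65 and *Trim63*, the MuRF1 ubiquitin ligase gene, with 3.61. The neuromuscular junction list had 1 of 13 (7.69%), *Prkar1a* with 2.93, and the dystrophin complex none of 14. The shares of oxidative metabolism, of atrophy and growth signalling and of the neuromuscular junction are near the background. *Pdk4* had no match in either single-replicate list, and *Trim63* and *Prkar1a* were matched in replicate 2 only.

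Genes of vessels and connective tissue also had members. Of 11 smooth muscle and pericyte genes 4 (36.4%) had one, each in both replicates. *Lmod1*, which encodes the leiomodin of smooth muscle, had 12.8 (6.63 and 13.8 in replicates 1 and 2), against 16.9 at its promoter, at chr1:135366247-135369888. *Myh11*, the smooth muscle myosin heavy chain gene, had 5.54 beside 6.70 at its promoter, *Des*, the desmin gene, which muscle fibres also use, had 4.73 beside 53.0, and *Notch3* had 3.61 beside 9.91, with a region in replicate 2 of 3267 bp and 9.40. Fibroblast genes had members at 5 of 20 (25%). *Pi16*, a marker of adventitial fibroblasts, had 2 regions with 12.2 and 9.52, both in both replicates and both above the 6.57 of its promoter, 653 and 139 bp past its end. The end of *Mtch1* also lies within 1 kb of the stronger one. The collagen gene *Col1a1* had 2.71, *Dcn* 3.09, *Fbn1* 4.64 and 3.61, and *Osr1* 3.87 and 3.65. Of these, the first *Fbn1* and the first *Osr1* region were in both replicates, *Dcn* and the second *Osr1* region were matched in replicate 2 only, and *Col1a1* and the second *Fbn1* region in neither. RefSeq has a start of *Gm40268* 761 bp from the summit of the first *Osr1* region.

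Endothelial genes had members at 2 of 17 (11.8%), *Kdr*, the VEGF receptor 2 gene, with 17.8 (14.2 and 17.5 in replicates 1 and 2) beside 19.5 at its promoter, and the endoglin gene *Eng* with 4.16 and 3.61. Satellite cell genes had 3 of 12 (25%), among them the Notch target gene *Heyl* with 15.6 (6.76 and 18.9) beside 13.5 at its promoter and the syndecan gene *Sdc4* with 6.48 and 3.35. The second *Sdc4* region had no match in either replicate. *Notch3* belongs to the satellite cell list as well as to the smooth muscle one. The adipocyte list had 1 of 7 (14.3%), the lipid droplet gene *Plin4* with 6.58, and the clock list 2 of 11 (18.2%), *Per1* with 6.82 and *Tef* with 4.59. No member lay at the 13 macrophage and leukocyte genes or the 17 liver genes. The heart list had 1 of 13 (7.69%, near the background), the connexin gene *Gja5* with 7.85. The brain list had 2 of 15 (13.3%), *Camk2a* with 4.12 in each of 2 regions and *Rbfox3* with 2.51. None of these brain-list regions was in both replicates. The promoters of *Gja5* and *Camk2a* had 18.4 and 36.9, and *Rbfox3* had no promoter region.

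**Figure D5:**
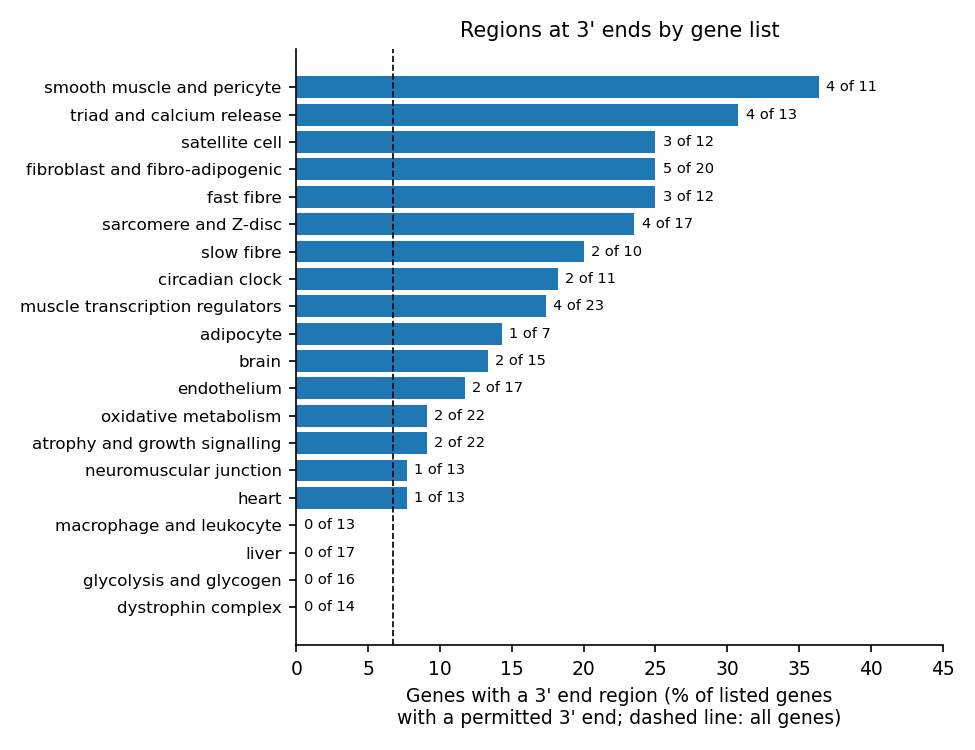
Percent of the genes of each list with a permitted 3' end that had a 3'-end region (bars from 0), with the counts beside each bar and all coding genes as a dashed line at 6.76%. Shares ran from none of 13 to 17 genes in 4 lists to 4 of 11 for smooth muscle and pericytes.

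The sequence around the summits differed in composition. The 250 bp to each side of a member's summit had a median GC content of 49.9% (45.5 to 53.7%), against 47.3% (43.5 to 50.9%) for the comparison regions, and the members were higher at every distance from a start: 50.3% and 47.7% at 5 to 10 kb, 50.2% and 47.5% at 10 to 20 kb, 48.7% and 47.3% at 20 to 50 kb, and 47.5% and 45.9% beyond. CpG-rich windows, with an observed over expected CpG ratio of at least 0.6 and a GC content of at least 50%, were found at 21 members (2.29%), against a background of 0.834%. The 12 strongest members had a GC content of 51.5 to 73.5%, with 57 CpG dinucleotides in the window at *Shf*, 36 at *Slc23a3*, 30 at *Bad* and 4 at *Ldhd*. Within 1 kb, RefSeq starts were not more frequent at members: 1 lay that near to 19 members (2.07%), against a background of 3.68%. When the rule also avoided RefSeq and all GENCODE starts, 601 of 919 members remained, and no such count is given for the comparison regions.

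Of the 17 motifs, the CTCF consensus differed most among those with at least 20 matching members. It was found within 250 bp of 28 summits (3.05%), against a background of 1.32%, a ratio of 2.31, and against 1.70% of comparison regions outside coding genes. The share was higher at members with a GC content up to 45% (2.01% against 0.709%), at 45 to 50% (2.62% against 1.12%) and at 50 to 55% (4.35% against 1.95%), but not above 55% (2.60% against 3.11%). From the lowest to the highest GC range, these shares rest on only 4, 7, 13 and 4 matching members. The CTCF share was higher in 3' UTRs (3.16% against 2.21%), between genes (3.19% against 1.74%) and in introns (2.80% against 1.10%). Matching members numbered only 13, 11 and 4 in these places, and the comparison share in 3' UTRs rests on 12 matches. The matches lay off the summit: within 100 bp, 2 members (0.218%) held one, against 0.249% of comparison regions. The 5 CTCF matches at the strongest members, chosen after their values were seen, are given on the strand of the match in mm10, with the match in capitals and 9 bases to each side.
Dand5 (chr8:84815731-84815742, minus strand): cgcttttagCCACTAGGTGGCaccgcgtcc
Ebpl (chr14:61331480-61331491, plus strand): attcggaggCCACCAGATGGCgctgttaac
1700001O22Rik (chr2:30794989-30795000, plus strand): cttcaagggCCAGCAGGTGGCgataaagac
Thbs4 (chr13:92751895-92751906, plus strand): cccaggcctCCTGTAGGGGGCgctgtcagc
Aak1 (chr6:87002946-87002957, minus strand): caaatactgCCAGCAGAGGGCgctcatctt
These regions had signal values of 38.6 at *Dand5*, 37.4 at *Ebpl*, 24.8 at *1700001O22Rik*, 15.7 at *Thbs4*, a matrix gene of muscle and tendon, and 14.6 at *Aak1*. The 28 matches lay 6 to 249 bp from the summit by their lowest coordinate, with a median of 160 bp, and 18 of the regions were in both replicates. Other members with a match included *Stac3* and *Sox13*. The window of 250 bp reaches past the edges of narrow regions, so a match in it need not lie in the region itself. The 5 printed matches lay inside their regions, but several others, among them that at *Stac3*, lay outside. A match is a stretch of letters and not a bound site.

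MEF2 motifs, the sites of the MEF2 factors of muscle genes, were found at 56 members (6.09%), against a background of 9.03%. With a GC content up to 45% the shares were 15.1% of members and 15.2% of comparison regions, at 45 to 50% they were 6.74% and 7.59%, at 50 to 55% 2.34% and 4.09%, and above 55% 0.649% (1 member) and 2.41%. AP-1 motifs were found at 158 members (17.2%), against a background of 17.4%, with 28.1% against 18.3% up to 45% GC, 16.5% against 17.9% at 45 to 50%, 12.04% against 16.3% at 50 to 55% and 14.3% against 14.1% above. GGGCGG was found at 12.4% of members and 9.26% of comparison regions, with 2.01% and 3.35% up to 45% GC, 8.24% and 7.58% at 45 to 50%, 13.4% and 13.2% at 50 to 55% and 31.2% and 32.0% above. The E-box CAGCTG was found at 35.1% and 31.4%, with 21.1% and 22.3% up to 45% GC, 33.7% and 31.6% at 45 to 50%, 39.8% and 39.9% at 50 to 55% and 46.8% and 46.6% above. Over all windows the E-box CAGGTG was found at 32.2% and 29.7%, and the TEAD motif GGAATG at 24.1% and 26.6%. Motifs were counted on both strands, and the shares were not tested.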

How the data were processed

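H3K27ac ChIP-seq was deposited by the authors as narrowPeak lists on mm10. Per the labels, the single-replicate lists join the technical replicates of 1 biological replicate, the pooled list joins both biological replicates, and the replicated list holds regions found across them. No aligner, peak caller or threshold is named in the sources used here. Each deposited row has a display score, which was not used, a signal value with no stated reference, −log10 p and −log10 q values, and the offset of its summit in bp. These values are the authors' own and serve only to describe or rank regions within a list. No read counts were used, so depth and the precision it gives are unknown.

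Members and comparison regions were found from the summit with the gene records, coding intervals and transcript starts of GENCODE vM21 basic. The members and the 20 gene lists were chosen with earlier results of these data known. No test was made: there is 1 group with 2 biological replicates, and regions and genes are not replicates. Density was counted over bases where the rule allows a summit. A member was shared with a replicate if a region of that list overlapped at least 50% of the shorter of both. A promoter region was the highest region within 1 kb of any start of a gene. Motifs were fixed consensus sequences, searched on both strands within 250 bp of the summit, and the E-boxes CAGCTG and CAGGTG share the form CANNTG. Sequences came from the RefSeq copy of GRCm38.p6, which has the same chromosomes as mm10, and are reference sequence rather than that of the hybrid mice. Members were named by rule: the 12 strongest in both replicates, the 6 widest, up to 3 for each gene list, the 5 with the largest excess over the promoter of their gene, and up to 4 genes with the most members. Further members of a list, and genes with CTCF matches, were named after their values were seen. The functions were tested on simulated regions with known answers. Alternatives were the other lists, a minimum −log10 q of 5, other windows, all coding transcript ends, other overlaps, and, chosen after seeing the data, avoiding RefSeq and all GENCODE starts too. Python 3.11.15, numpy 2.4.6, pandas 2.3.3 and matplotlib 3.10.9 were used.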

Additional observations from a re-analysis of the deposited data

How the results depend on the processing

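No paired analysis was possible because there was 1 group. The number of members counted as moved when it changed by over 1.5 times, the share in both replicates when it left its 95% Wilson interval, and every other value when it moved by more than 1 SD between the single-replicate lists, which is narrow for several measures. The causes of the moves were not tested. Depth is unknown, and what it limits was not tested. The direction of each difference from the comparison regions was examined only where the report gives both values.

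The number of members was 919, with 456 within 500 bp of the end, 534 beyond 10 kb from starts and 601 when RefSeq and all GENCODE starts were also avoided, and it was 1245 with all coding transcript ends, 1007 in the pooled list, 765 with a −log10 q of at least 5 and 732 to 926 in the single-replicate lists. The share of permitted gene ends with a region, 6.76%, was 3.74% with 500 bp, 8.12% with all coding transcript ends and 5.56% with the added starts, and 5.28% to 6.94% in the single-replicate lists. The density ratio, 1.142, was 1.105 to 1.118 in the single-replicate lists, 1.105 with 500 bp, 1.076 beyond 10 kb from starts, 1.119 with transcript ends and 1.104 with the added starts. The share of members past the end, 47.6%, was 48.5% to 50.7% in the single-replicate lists, 45.7% beyond 10 kb and 50.04% with transcript ends. The share in both replicates, 59.2%, was 53.9% in the pooled list, 69.8% with a −log10 q of at least 5 and 40.7% where 50% of both regions had to overlap.

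Median width, 745 bp, was 656.5 to 763.5 bp in the single-replicate lists, 664 bp in the pooled list and 960 bp with the q minimum. Median signal value, 4.39, was 4.74 to 4.92 in the single-replicate lists, 4.23 in the pooled list, 4.90 with the q minimum and 4.53 with 500 bp. The share of genes with a promoter region, 86.7%, was 86.97% to 87.0% in the single-replicate lists, 86.8% in the pooled list, 86.1% with the q minimum, 85.1% with 500 bp, 88.2% beyond 10 kb, 88.0% with transcript ends, 86.4% with promoters of 500 bp and 85.1% with the added starts. The share of members above their promoter, 5.75%, was 6.27% to 7.34% in the single-replicate lists, 7.24% with 500 bp and 4.60% with transcript ends.

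The share with a CTCF motif, 3.05%, was 3.73% with 500 bp, 0.218% within 100 bp of the summit and 2.50% with the added starts. The MEF2 share, 6.09%, was 6.59% to 6.69% in the single-replicate lists, 6.26% in the pooled list, 6.01% with the q minimum, 7.24% with 500 bp, 5.62% beyond 10 kb, 6.43% with transcript ends, 0.871% within 100 bp of the summit and 6.32% with the added starts. The AP-1 share, 17.2%, was 15.7% to 16.3% in the single-replicate lists, 16.3% in the pooled list, 16.0% with 500 bp, 17.8% beyond 10 kb, 15.0% with transcript ends, 5.77% within 100 bp of the summit and 17.97% with the added starts. Median GC content, 49.9%, was 50.1% to 50.3% in the single-replicate lists, 49.7% in the pooled list, with 500 bp and with transcript ends, 49.3% beyond 10 kb and with the added starts, and 51.2% within 100 bp of the summit.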
